A study of Mus musculus with 9 samples.

Results

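The constitutive proteasome genes encode the subunits of the standard 26S proteasome, the protease that degrades ubiquitin-tagged proteins in every cell, and the chaperones that assemble its cap. Members were the protein-coding mouse genes with a Psma, Psmb, Psmc or Psmd symbol in the GENCODE M21 annotation of the mm10 build, without the 3 inducible immunoproteasome subunits Psmb8, Psmb9 and Psmb10. The rule gave 36 genes of the 55487 gene identifiers in the deposited count table, and the rule itself reads no expression value. RNA had been sequenced from isolated mouse cardiomyocytes, the contractile cells of the heart, in 3 groups of 3 libraries. The Firre group received an adeno-associated virus of serotype AAV9 that overexpresses the long noncoding RNA Firre. The negative control is given as AAV9-VC, and the blank control only as a blank, with no virus named. The labels give neither the promoter that drives Firre nor the strain, genotype or age of the animals, and none of these is stated here.

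The proteasome is a barrel with caps. In the barrel, the 20S core, outer rings of alpha subunits gate the entrance and inner rings of beta subunits carry the protease sites. The 19S cap has a base, whose ring of ATPases unfolds the substrate and threads it into the barrel, and a lid, which holds the deubiquitinase that removes the ubiquitin chain. Subunits are needed in fixed proportions, and in mammalian cells many of their genes are induced together by the transcription factor NRF1 (Nfe2l1) when proteasome activity falls short. In heart muscle the proteasome turns over damaged and oxidised sarcomere proteins, and muscle-specific ubiquitin ligases feed it.

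Gene counts per library lay between 15591542 and 22697016. Levels are given as CPM, the count of a gene relative to the size of its library after TMM scaling. Firre itself stood at 62.8, 69.6 and 62.5 CPM in the 3 Firre libraries, with 32.5, 34.4 and 32.7 CPM for the negative control and 34.0, 37.1 and 30.2 CPM for the blank control, so each Firre library matched its label. The summed level of 10 cardiomyocyte markers was 64059 to 66915 CPM in the Firre libraries, 39368 to 42294 CPM for the negative control and 40095 to 41728 CPM for the blank control, and all 10 were higher in the Firre group. Markers of the other cells of the heart were lower in the Firre group, all 8 for fibroblasts, 8 for macrophages, 6 for endothelial cells, 6 for smooth muscle and pericytes and 4 for epicardial cells. All these markers passed the edgeR test described below against either control. The marker lists were chosen with earlier results of these data known. Of all genes tested, 27.5% were called higher and 28.4% lower than in the negative control. Against the blank control the shares were 27.3% and 28.9%. Fibroblast markers summed to 4439 to 4983 CPM in the Firre libraries, 9685 to 9888 CPM for the negative control and 9695 to 10164 CPM for the blank control. The macrophage sums were 11.5 to 12.8 CPM with C1qa at 0 counts in the Firre libraries, 66.6 to 73.3 CPM for the negative control and 84.2 to 99.2 CPM for the blank control. The endothelial sums were 235 to 248 CPM in the Firre libraries, 657 to 669 CPM for the negative control and 717 to 748 CPM for the blank control. Smooth muscle and pericyte markers summed to 1184 to 1328 CPM in the Firre libraries, 2539 to 2908 CPM for the negative control and 2737 to 3066 CPM for the blank control. The epicardial sums were 39.4 to 40.4 CPM in the Firre libraries, 185 to 198 CPM for the negative control and 161 to 175 CPM for the blank control. Fewer cells of a type and less RNA per cell cannot be told apart in bulk RNA. These marker levels move with every comparison of the Firre group below, and their part in the proteasome results was not tested.

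Of the 36 genes, 35 passed the low-count filter. Psmb11, the beta subunit of the thymus proteasome, had 1 count over the 9 libraries and was not tested. Psma8, the alpha subunit of the testis proteasome, stayed at 0.860, 0.496 and 0.939 CPM in the Firre libraries, 1.18, 0.705 and 0.663 CPM for the negative control and 0.829, 0.779 and 0.685 CPM for the blank control. Its log2 difference from the negative control was -0.16 with a 95% interval of -0.94 to 0.62, so changes of up to about that size were not detectable at this depth. The 34 others, the proteasome genes of ordinary tissues, were measured in every library. They varied little between libraries of a group: their median coefficient of variation was 3.52% in the Firre group, 3.32% in the negative control and 4.28% in the blank control, against 6.99%, 6.80% and 7.99% over all genes tested. The genes tested include many with low counts, and the medians were not matched for level. Whether these genes vary less than others of their level was not tested. Psmd10 varied most in the Firre group (10.6%), Psmb5 in the negative control (10.4%) and Psmb4 in the blank control (16.7%).

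Per kilobase of merged exon, the level in the negative control ran between 2.94 CPM per kb for Psmd9 and 96.4 CPM per kb for Psmd8. Psmd9 (2.94), Psmd5 (5.52) and Psmd10 (11.7 CPM per kb), the 3 chaperones that help to assemble the base and are not part of the finished particle, were the 3 lowest of the 34. Retained introns lengthen the merged exons of several genes, and over the longest coding transcript the lowest levels were again those of Psmd9 (8.20), Psmd5 (9.07) and Psmd10 (12.1 CPM per kb). The top of the order depended on the length used. Over merged exons Psmd8 (96.4), Psmc1 (88.1) and Psmb2 (77.4 CPM per kb) led, and over the longest coding transcript Psmd8 (149), Psmb3 (124) and Psmb6 (114 CPM per kb).

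Firre overexpression was first set against the negative control. In edgeR's quasi-likelihood test with Benjamini-Hochberg adjustment over all 15633 genes, 15 of the 35 proteasome genes were higher in the Firre group, 3 were lower and 17 did not pass. The share of proteasome genes called was 51.4%, near the 56.0% called over all genes tested. The directions were less alike: 42.9% of the proteasome genes were called higher, against 27.5% of all genes, and 8.57% were called lower, against 28.4% of all genes. The sizes were small. The median log2 difference was 0.10, with quartiles of 0.02 and 0.18 and extremes of -0.33 for Psmd8 and 0.51 for Psmc5, whereas over all genes the quartiles were -0.33 and 0.32 around a median near 0. The sign was positive for 30 genes and negative for 5, whereas over all genes it was positive for 7821 and negative for 7812. The groups did not overlap for 21 genes, 18 higher and 3 lower in the Firre group; over all genes 62.4% did not overlap, 30.8% higher and 31.5% lower.

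**Figure D1:**
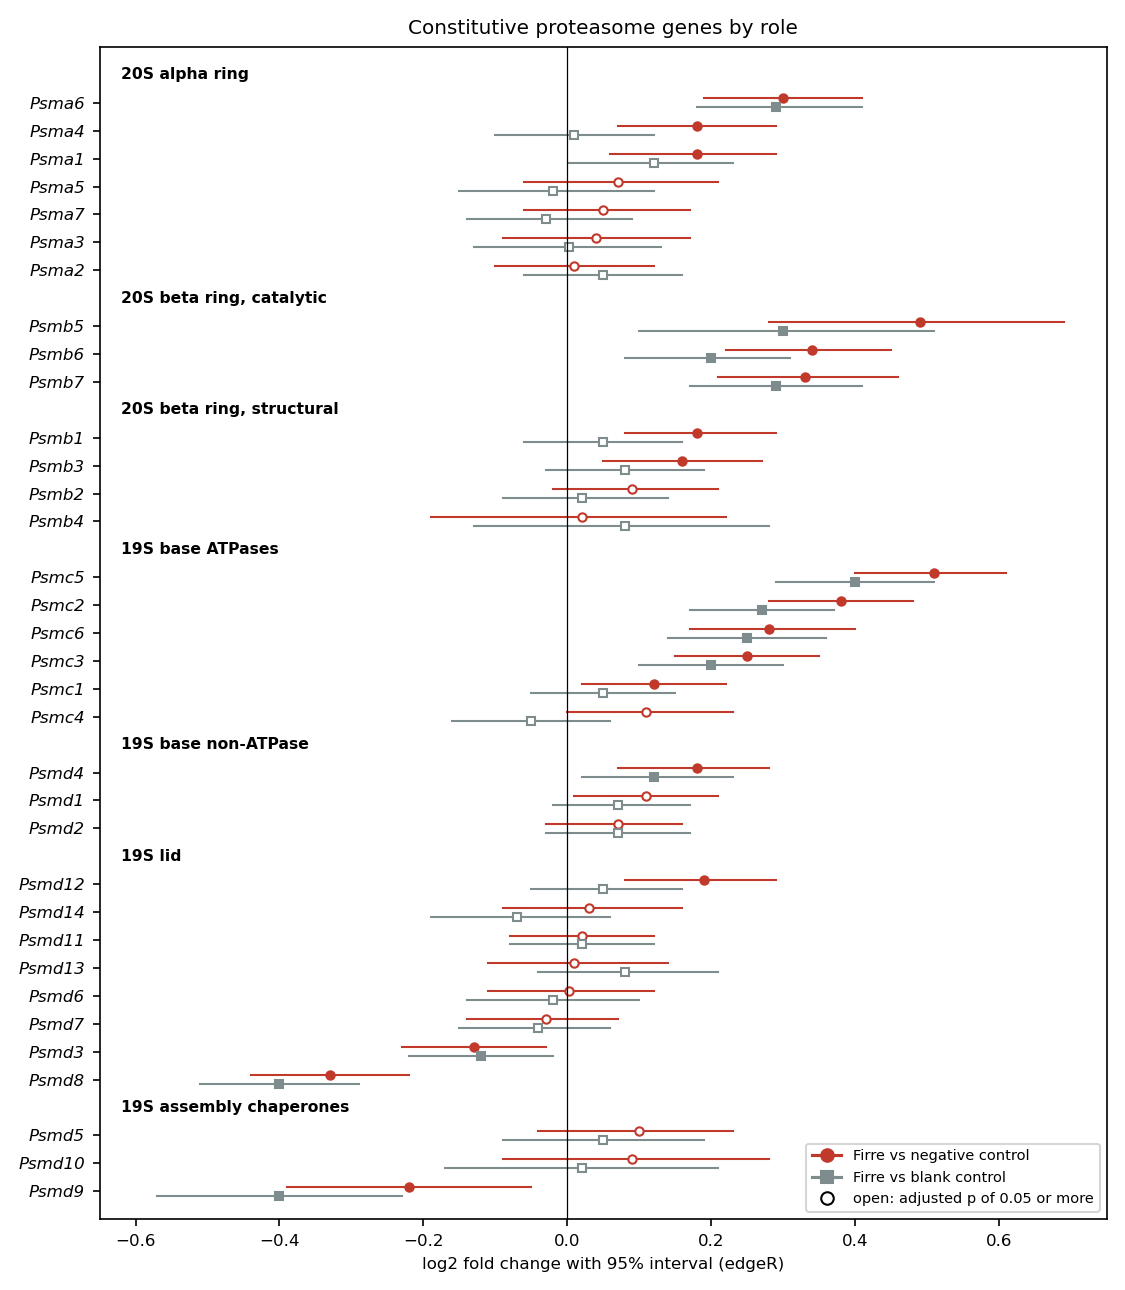
Log2 fold change of each of the 34 proteasome genes measured in every library, grouped by role, with 95% intervals from the edgeR fit; circles set the Firre group against the negative control and squares against the blank control, and open symbols mark adjusted p-values of 0.05 or more. The catalytic subunits and most base ATPases lie to the right of 0, most of the lid lies around 0, and Psmd8 and Psmd9 lie to the left in both comparisons.

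All 3 catalytic subunits of the beta ring and 5 of 6 base ATPases were higher in the Firre group than in the negative control, with median log2 differences of 0.34 and 0.27. Of the alpha ring 3 of 7 were higher (median 0.07), of the structural beta subunits 2 of 4 (median 0.13) and of the base subunits without ATPase activity 1 of 3 (median 0.11), and none of these was lower. In the lid 1 of 8 was higher and 2 were lower (median 0.01), and of the chaperones 0 of 3 were higher and 1 was lower (median 0.09). Over all genes tested, 27.5% were called higher and 28.4% lower. The lower calls in the lid and among the chaperones were therefore near the share of all genes. The same holds for the higher call among the base subunits without ATPase activity. Summed over the 14 genes of the 20S core, the libraries of the Firre group reached 1214, 1225 and 1245 CPM, with 1100, 1076 and 1113 CPM for the negative control. Each Firre library stood above each negative control library, at a ratio of the means of 1.12. The 9 genes of the base summed to 1498, 1503 and 1507 CPM in the Firre libraries and 1321, 1280 and 1327 CPM for the negative control, a ratio of 1.15. The 8 lid genes summed to 966, 965 and 971 CPM in the Firre libraries and 1042, 990 and 1056 CPM for the negative control, a ratio of 0.940. Psmd8 accounts for that gap, since the 7 other lid genes summed to 736, 735 and 729 CPM in the Firre libraries and 740, 716 and 748 CPM for the negative control, a ratio of 0.999. No test was made between the roles.

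**Figure D2:**
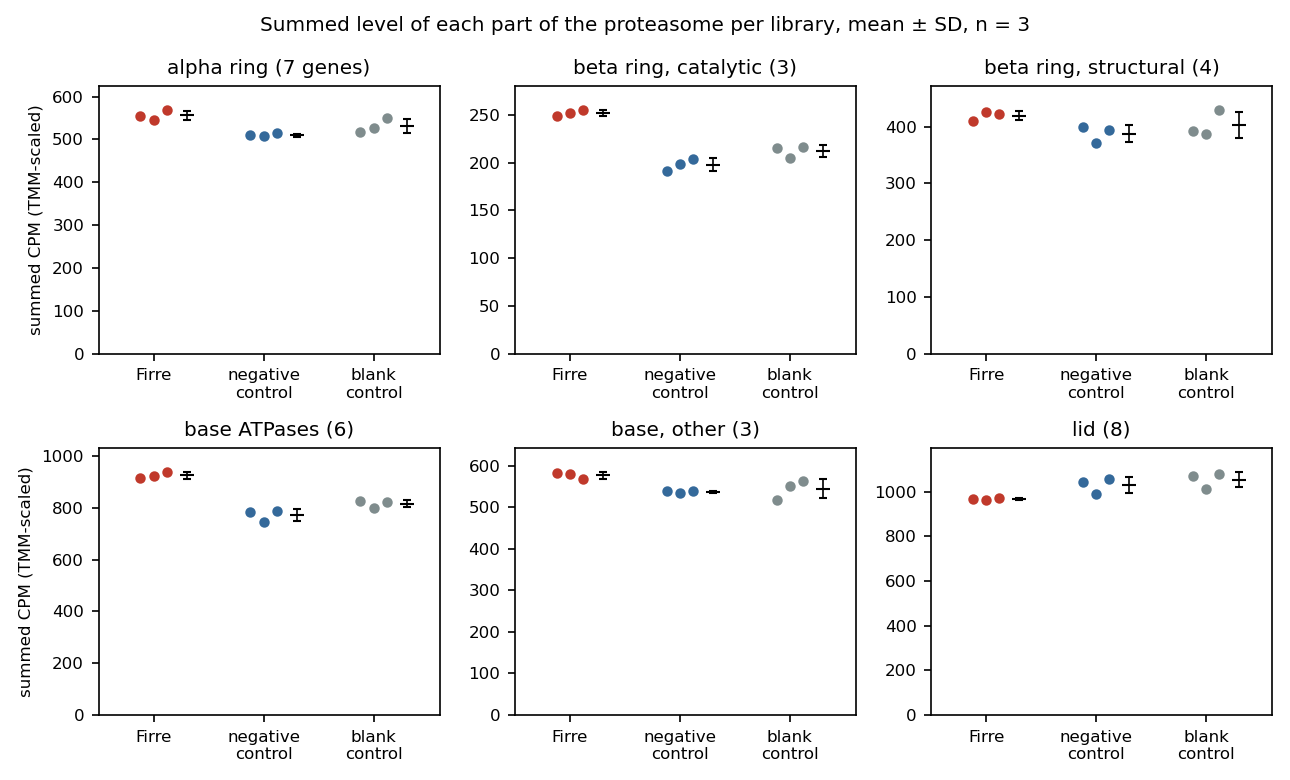
Summed CPM of the genes of each role in every library (points) with mean ± SD (bars, n = 3) for the Firre group, the negative control and the blank control, on axes that start at 0. The catalytic sum is 249 to 255 CPM in the Firre libraries and 191 to 204 CPM for the negative control, and the lid sum, which includes Psmd8, is 965 to 971 CPM in the Firre libraries and 990 to 1056 CPM for the negative control.

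The catalytic subunits cut the substrate, and each has its own cleavage preference. Psmb6 carries the caspase-like site, Psmb7 the trypsin-like site and Psmb5 the chymotrypsin-like site. Their promoters are shown, with those of the gene that differed most in each direction (Psmc5 and Psmd8). The catalytic genes were chosen for their role and not for the size of their differences. Psmc2, whose log2 difference of 0.38 from the negative control exceeds that of Psmb6 (0.34), is not shown. The sequences are the 200 bases before the transcription start in RefSeq, on the GRCm38.p6 build and the strand of the gene. Capitals mark matches, on either strand, to any of 5 short motifs: TGACNNNGC (core of the antioxidant response element, which NRF1 and NRF2 bind), CCAAT (NF-Y box), GGCGGG (GC box), GGAAGT (ETS family) and GAAANNGAA (interferon-stimulated response element). RefSeq's table used here held no promoter for Psmb7.
Psmb5, chr14:54617996-54618195, minus strand: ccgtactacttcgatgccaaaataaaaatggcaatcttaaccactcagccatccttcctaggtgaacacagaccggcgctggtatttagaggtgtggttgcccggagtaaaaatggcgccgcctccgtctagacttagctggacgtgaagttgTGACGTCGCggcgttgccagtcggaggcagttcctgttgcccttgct
Psmb6, chr11:70525157-70525356, plus strand: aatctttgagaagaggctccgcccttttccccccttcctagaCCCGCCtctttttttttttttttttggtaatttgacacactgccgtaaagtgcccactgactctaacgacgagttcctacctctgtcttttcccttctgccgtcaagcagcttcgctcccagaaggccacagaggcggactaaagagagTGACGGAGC
Psmc5, chr11:106255985-106256184, plus strand: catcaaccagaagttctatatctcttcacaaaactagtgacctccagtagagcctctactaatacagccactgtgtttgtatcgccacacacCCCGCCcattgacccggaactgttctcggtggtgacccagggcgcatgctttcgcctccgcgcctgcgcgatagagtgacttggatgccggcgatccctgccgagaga
Psmd8, chr7:29180674-29180873, minus strand: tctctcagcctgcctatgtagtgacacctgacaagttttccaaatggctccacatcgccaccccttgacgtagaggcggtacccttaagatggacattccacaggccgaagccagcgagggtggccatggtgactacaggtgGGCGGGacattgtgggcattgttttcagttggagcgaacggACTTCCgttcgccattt
The antioxidant response core stands as TGACGTCGC at position -47 of Psmb5 and as TGACGGAGC at position -9 of Psmb6, counted from the start, and these letters are not in the windows of Psmc5 and Psmd8.

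Psmb5 lies on chromosome 14 (54614119 to 54618022, minus strand) and measured 27.5, 24.2 and 26.4 CPM in the Firre libraries, 16.6, 18.5 and 20.5 CPM for the negative control and 24.0, 17.4 and 22.1 CPM for the blank control. Each Firre library stood above every control library, by a narrow gap to the highest blank control library. The log2 difference from the negative control was 0.49 ± 0.10 (SE; edgeR adjusted p = 1.56e-04), and that from the blank control was 0.30 ± 0.10 (adjusted p = 0.0114). Without blank control replicate 2, the lowest of its group, the second was 0.17 and no longer passed (adjusted p = 0.136). Psmb5 has a processed pseudogene, Gm3375 on chromosome 7, that matches it at 98.9% over 796 bases and drew more counts than Psmb5 itself. Gm3375 measured 36.2, 37.4 and 32.8 CPM in the Firre libraries, 30.1, 26.9 and 27.2 CPM for the negative control and 27.4, 27.3 and 33.1 CPM for the blank control. Its log2 difference from the negative control was 0.34 ± 0.08 (adjusted p = 6.18e-04). How the counting shared reads between the 2 copies is not given in the sources used here, so the level of Psmb5 is uncertain. The microRNA gene Mir686 on the same strand also covers 12.1% of the Psmb5 exon length, and how reads there were counted is not given either. With the counts of Gm3375 added, the log2 difference of Psmb5 from the negative control was 0.40 and still passed.

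Psmb6 lies on chromosome 11 (70525367 to 70527858, plus strand) and measured 112, 124 and 109 CPM in the Firre libraries, 93.1, 88.2 and 92.1 CPM for the negative control and 103, 95.4 and 102 CPM for the blank control. Its levels in the Firre group did not overlap with those of either control. On the log2 scale the difference was 0.34 ± 0.06 from the negative control (edgeR adjusted p = 6.44e-06) and 0.20 ± 0.06 from the blank control (adjusted p = 0.00330). Psmb7, on chromosome 2 (38588036 to 38644087, minus strand), measured 110, 104 and 120 CPM in the Firre libraries, 81.3, 91.9 and 91.7 CPM for the negative control and 87.6, 92.2 and 93.2 CPM for the blank control. Again the groups did not overlap. The log2 difference was 0.33 ± 0.06 from the negative control (adjusted p = 1.58e-05) and 0.29 ± 0.06 from the blank control (adjusted p = 1.12e-04). Exons of Nek6 on the opposite strand cover 11.8% of the Psmb7 exon length, and whether the counting used strand is not stated. Opposite-strand exons likewise cover 10.1% of the exon length of Psmd13 (Sirt3) and 8.25% of that of Psmc3 (Slc39a13).

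**Figure D3:**
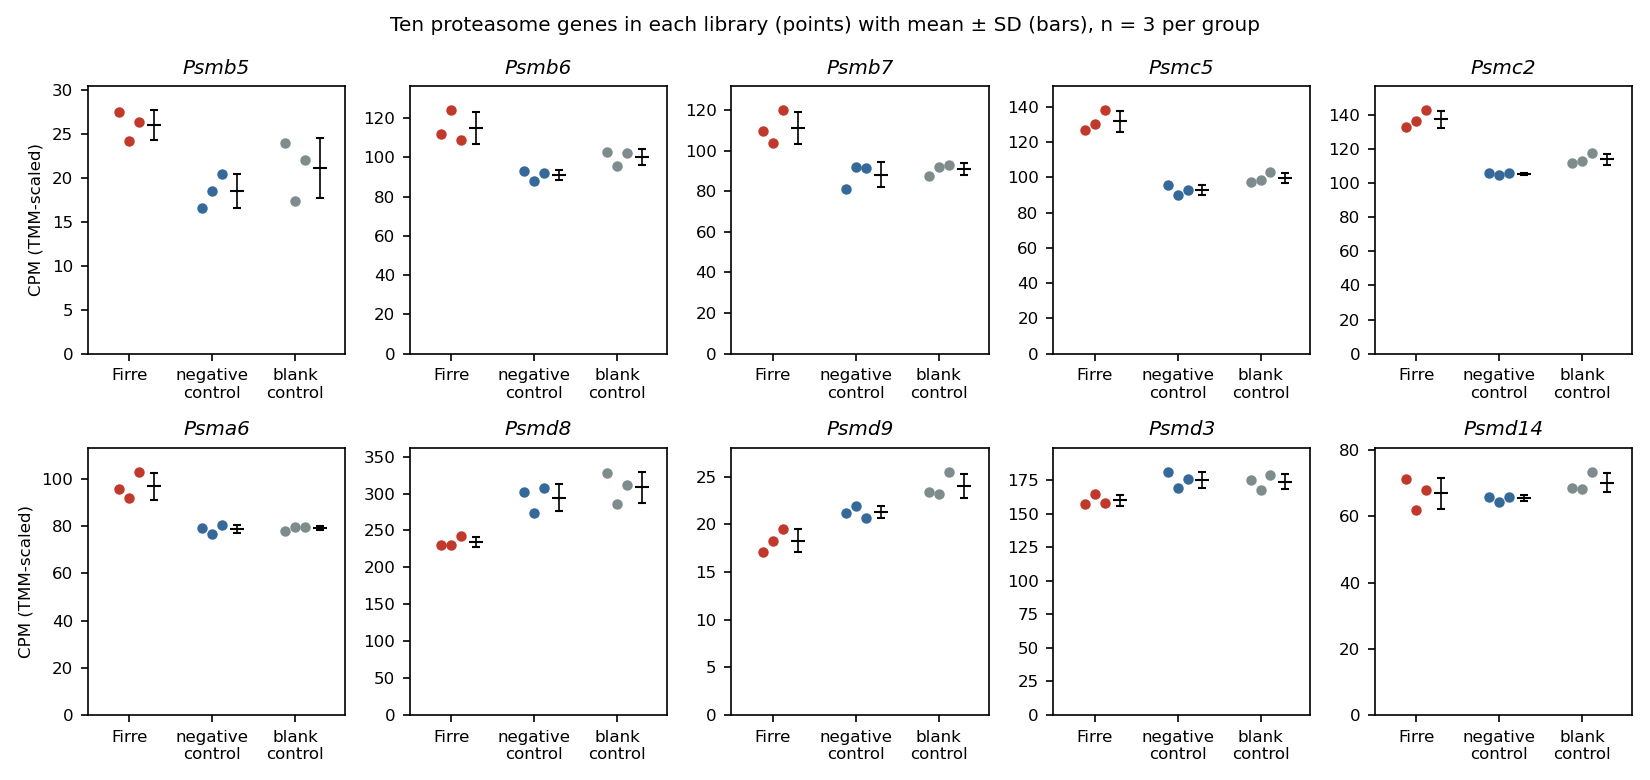
CPM of 10 proteasome genes in every library (points) with mean ± SD (bars, n = 3) for the Firre group, the negative control and the blank control, on axes that start at 0. Psmb5, Psmb6, Psmb7, Psmc5, Psmc2 and Psma6 are higher and Psmd8, Psmd9 and Psmd3 lower in the Firre group than in both controls, and for Psmd14 the Firre group overlaps with each control.

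Interferon-inducible subunits can replace the catalytic ones in newly built particles, and all 3 rose against the negative control, with log2 differences of 2.75 for Psmb8, 2.39 for Psmb9 and 1.38 for Psmb10 (edgeR adjusted p = 6.62e-19, 2.39e-09 and 1.17e-15). Psmb9 measured 4.40, 4.78 and 3.60 CPM in the Firre libraries and 0.719, 0.940 and 0.765 CPM for the negative control. For the blank control it measured 1.28, 0.731 and 0.971 CPM. The log2 difference of Psmb9 (SE 0.26) and its ratio below therefore rest on few counts in the controls. On the scale of CPM per kb of merged exon, the ratio of Psmb8 to Psmb5 was 0.289 ± 0.0314 in the Firre group, 0.0607 ± 0.0118 in the negative control and 0.0569 ± 0.00657 in the blank control (SD, n = 3 each). With Gm3375 added to Psmb5 that ratio averaged 0.122 in the Firre group and 0.0238 in each control. The ratio of Psmb10 to Psmb7 was 0.894 ± 0.0907 in the Firre group, 0.434 ± 0.0329 in the negative control and 0.432 ± 0.0328 in the blank control. For Psmb9 to Psmb6 it was 0.0189 ± 0.00180 in the Firre group, 0.00455 ± 0.000794 in the negative control and 0.00503 ± 0.00120 in the blank control. On this scale each ratio was below 1 in every library, the highest being 0.998 for Psmb10 to Psmb7 in Firre replicate 2. The sizes of the ratios depend on the length used. Over the longest coding transcript, a length chosen after seeing the data, the ratio of Psmb10 to Psmb7 was 0.394 ± 0.0400 in the Firre group, 0.191 ± 0.0145 in the negative control and 0.191 ± 0.0144 in the blank control. On that scale Psmb8 to Psmb5 gave 0.600 ± 0.0652 in the Firre group, 0.126 ± 0.0244 in the negative control and 0.118 ± 0.0136 in the blank control.

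**Figure D4:**
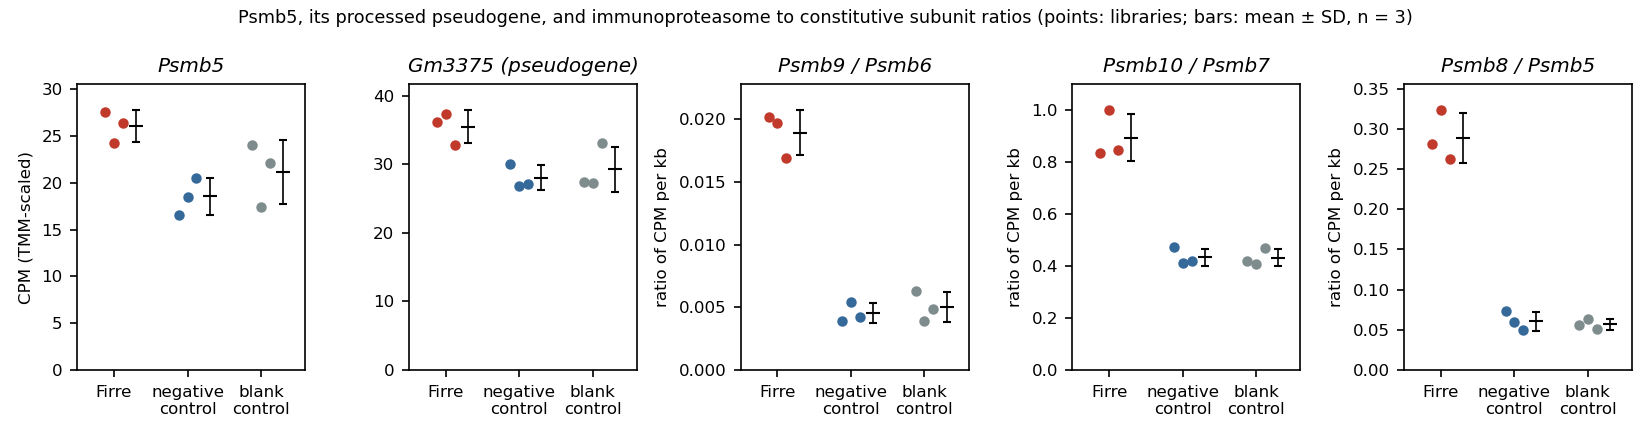
CPM of Psmb5 and of its processed pseudogene Gm3375, and the ratio of each inducible catalytic subunit to its constitutive counterpart on the scale of CPM per kb of merged exon, in every library (points) with mean ± SD (bars, n = 3), on axes that start at 0. No control library reaches the lowest Firre library in any of the 3 ratios, and all ratios stay below 1.

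The remaining beta subunits are structural. Psmb1 averaged 111 ± 1.58 CPM in the Firre group, 97.5 ± 4.13 CPM for the negative control and 107 ± 4.85 CPM for the blank control (SD, n = 3 each). Psmb3 measured 104, 108 and 106 CPM in the Firre libraries, 98.9, 88.9 and 97.3 CPM for the negative control and 103, 94.4 and 104 CPM for the blank control. Both rose against the negative control, with log2 differences of 0.18 for Psmb1 (edgeR adjusted p = 0.00395) and 0.16 for Psmb3 (adjusted p = 0.0152). Against the blank control their log2 differences were 0.05 and 0.08 and did not pass. Without negative control replicate 2 the difference of Psmb3 was 0.11 and did not pass (adjusted p = 0.124). Psmb2 and Psmb4 did not pass against the negative control, at log2 0.09 (95% interval -0.02 to 0.21) and 0.02 (-0.19 to 0.22). The blank control libraries of Psmb4, at 83.1, 95.2 and 116 CPM, were less alike than those of any other of these genes.

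In the alpha ring, Psma6 differed most. It lies on chromosome 12 (55384222 to 55418454, plus strand) and measured 95.7, 91.9 and 103 CPM in the Firre libraries, 79.2, 76.8 and 80.4 CPM for the negative control and 78.1, 79.7 and 79.5 CPM for the blank control. The controls lay close together and every Firre library stood above them. On the log2 scale the difference was 0.30 ± 0.05 from the negative control (edgeR adjusted p = 2.71e-05) and 0.29 ± 0.06 from the blank control (adjusted p = 3.88e-05). Psma1 and Psma4 were each higher by 0.18 on the log2 scale than in the negative control (adjusted p = 0.00963 and 0.00575), and their log2 differences from the blank control were 0.12 and 0.01, neither of which passed. Without negative control replicate 1 the difference of Psma1 was 0.14 and did not pass (adjusted p = 0.0675). Psma4 measured 94.1, 89.5 and 97.5 CPM in the Firre libraries, 84.0, 83.8 and 80.8 CPM for the negative control and 93.7, 89.8 and 95.2 CPM for the blank control, so that the blank control overlapped with the Firre group and not with the negative control. Psma2 (0.01, 95% interval -0.10 to 0.12), Psma3 (0.04, -0.09 to 0.17), Psma5 (0.07, -0.06 to 0.21) and Psma7 (0.05, -0.06 to 0.17) did not pass against the negative control. Psma3 shares 685 identical bases with the processed pseudogene Gm13835, and with the counts of its copies added its log2 difference was 0.07 and still did not pass.

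The 6 ATPases of the base form the motor that unfolds substrates. Psmc5, on chromosome 11 (106256154 to 106263120, plus strand), had the largest rise of the 35 genes. It measured 127, 130 and 138 CPM in the Firre libraries, 95.7, 89.8 and 92.6 CPM for the negative control and 97.4, 98.5 and 103 CPM for the blank control. Every Firre library stood well above all 6 control libraries. The log2 difference was 0.51 ± 0.05 from the negative control (edgeR adjusted p = 1.08e-09), a 1.42-fold level, and 0.40 ± 0.05 from the blank control (adjusted p = 1.05e-07). Psmc2, on chromosome 5 (21785283 to 21803787, plus strand), measured 133, 137 and 143 CPM in the Firre libraries, 106, 105 and 106 CPM for the negative control and 112, 113 and 118 CPM for the blank control. The 3 groups were tight and the Firre group stood clear of both controls. On the log2 scale the difference was 0.38 ± 0.05 from the negative control (adjusted p = 1.11e-07) and 0.27 ± 0.05 from the blank control (adjusted p = 2.71e-05).

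Psmc6 and Psmc3 also rose, by 0.28 and 0.25 on the log2 scale against the negative control (edgeR adjusted p = 5.53e-05 and 1.03e-04) and by 0.25 and 0.20 against the blank control (adjusted p = 2.51e-04 and 0.00115). Psmc6 averaged 158 ± 7.02 CPM in the Firre group, 130 ± 3.52 CPM for the negative control and 133 ± 10.4 CPM for the blank control (SD, n = 3 each). Psmc3 averaged 196 ± 5.92 CPM in the Firre group, 165 ± 7.91 CPM for the negative control and 171 ± 7.36 CPM for the blank control. Psmc1 was higher by 0.12 against the negative control (adjusted p = 0.0344), the smallest rise that passed, and its log2 difference from the blank control was 0.05. That call of Psmc1 did not hold without Firre replicate 1 (adjusted p = 0.0638), Firre replicate 3 (0.0904), negative control replicate 1 (0.0846) or negative control replicate 2, where the difference was 0.09 (0.180). Psmc4 did not pass, at log2 0.11 against the negative control (adjusted p = 0.0832) and -0.05 against the blank control. It passed without negative control replicate 1, at 0.15 (adjusted p = 0.0485).

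The base also holds the scaffold subunits Psmd1 and Psmd2, the second of which docks shuttle proteins, and Psmd4, a receptor for ubiquitin chains. Psmd4 averaged 120 ± 1.96 CPM in the Firre group, 107 ± 4.34 CPM for the negative control and 111 ± 4.64 CPM for the blank control (SD, n = 3 each). It was higher by log2 0.18 than in the negative control (edgeR adjusted p = 0.00427) and by 0.12 than in the blank control (adjusted p = 0.0433). The second call of Psmd4 was close to the threshold and was lost in 6 of the 9 fits that left out 1 library. These were the fits without replicate 1 or 3 of the Firre group, 1 or 3 of the negative control and 1 or 2 of the blank control, the last pair giving 0.10 (adjusted p = 0.140) and 0.12 (0.0789). Psmd1 just missed the threshold against the negative control, at 0.11 with a 95% interval of 0.01 to 0.21 (adjusted p = 0.0511), and Psmd2 did not pass at 0.07 (-0.03 to 0.16). Psmd1 passed without Firre replicate 3, at 0.14 (adjusted p = 0.0381), and without any 1 of the blank control libraries, at 0.11 each.

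Psmd8, a lid subunit on chromosome 7 (29174188 to 29180701, minus strand), fell to 230, 230 and 242 CPM in the Firre group, against 302, 274 and 308 CPM for the negative control and 328, 286 and 311 CPM for the blank control. No Firre library came near the lowest control library. The log2 difference was -0.33 ± 0.05 from the negative control (edgeR adjusted p = 3.37e-06), a 0.794-fold level, and -0.40 ± 0.05 from the blank control (adjusted p = 1.69e-07). Psmd3, another lid subunit, on chromosome 11 (98682554 to 98695979, plus strand), measured 157, 165 and 158 CPM in the Firre libraries, 181, 169 and 176 CPM for the negative control and 175, 168 and 179 CPM for the blank control. The gap between the groups was small. On the log2 scale the difference was -0.13 ± 0.05 from the negative control (adjusted p = 0.0221) and -0.12 ± 0.05 from the blank control (adjusted p = 0.0366). The first of these Psmd3 calls did not hold without Firre replicate 1 (adjusted p = 0.0907), Firre replicate 3 (0.0678), negative control replicate 1 (0.100) or negative control replicate 3 (0.0613). The second did not hold without Firre replicate 1 (0.156), Firre replicate 3 (0.120), blank control replicate 1 (0.0768) or blank control replicate 3 (0.111).

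Psmd12 was the lid subunit that rose, by log2 0.19 against the negative control (edgeR adjusted p = 0.00236), at 106, 102 and 106 CPM in the Firre libraries, 92.5, 91.5 and 92.0 CPM for the negative control and 103, 101 and 98.1 CPM for the blank control. Its log2 difference from the blank control was 0.05 and did not pass. Psmd14, the deubiquitinase of the lid, lies on chromosome 2 (61711694 to 61800376, plus strand) and measured 71.3, 62.0 and 67.9 CPM in the Firre libraries, 66.0, 64.4 and 66.0 CPM for the negative control and 68.7, 68.4 and 73.5 CPM for the blank control. The Firre group overlapped with each control, and the log2 difference was 0.03 from the negative control (95% interval -0.09 to 0.16) and -0.07 from the blank control (-0.19 to 0.06). Psmd6 (0.003, 95% interval -0.11 to 0.12), Psmd7 (-0.03, -0.14 to 0.07), Psmd11 (0.02, -0.08 to 0.12) and Psmd13 (0.01, -0.11 to 0.14) did not pass against the negative control either. The intervals of these 5 genes leave room for log2 changes of up to about 0.16.

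Among the assembly chaperones, Psmd9 on chromosome 5 (123169413 to 123250131, plus strand) measured 17.1, 18.2 and 19.5 CPM in the Firre libraries, 21.2, 21.9 and 20.7 CPM for the negative control and 23.4, 23.2 and 25.5 CPM for the blank control. The 3 groups followed each other without overlap. The log2 difference was -0.22 ± 0.08 from the negative control (edgeR adjusted p = 0.0242) and -0.40 ± 0.08 from the blank control (adjusted p = 1.56e-04). The first Psmd9 call did not hold without Firre replicate 1, at -0.18 (adjusted p = 0.121), without Firre replicate 2 (0.0569) or without negative control replicate 2 (0.0789), nor in DESeq2 (0.0631). Without Firre replicate 1, Psmd8 alone remained of the 3 genes called lower, so that count was 1. Exons of the noncoding gene Gm26745 on the opposite strand cover 25.5% of the Psmd9 exon length, so its counts are uncertain if strand was not used. Psmd5 (0.10, 95% interval -0.04 to 0.23) and Psmd10, also known as gankyrin (0.09, -0.09 to 0.28), did not pass against the negative control.

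The same Firre libraries were then set against the blank control, so this comparison and the one above share 3 libraries. In edgeR 9 of 35 proteasome genes were higher in the Firre group, 3 were lower and 23 did not pass, and the share called was 34.3%, against 56.3% over all genes tested. The share called higher was 25.7%, against 27.3% of all genes, and the share called lower 8.57%, against 28.9%. The median log2 difference was 0.05, with extremes of -0.40 and 0.40. The 9 were the catalytic Psmb5, Psmb6 and Psmb7, the ATPases Psmc2, Psmc3, Psmc5 and Psmc6, and Psma6 and Psmd4, and the 3 were Psmd8, Psmd9 and Psmd3. The groups did not overlap for 14 genes, 11 higher and 3 lower in the Firre group; over all genes 60.5% did not overlap, 29.5% higher and 31.0% lower. The catalytic subunits summed to 249, 252 and 255 CPM in the Firre libraries and 215, 205 and 217 CPM for the blank control, a ratio of 1.19. The ATPases summed to 915, 922 and 939 CPM in the Firre libraries and 828, 801 and 821 CPM for the blank control, a ratio of 1.13.

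The negative control was also set against the blank control, a comparison between groups without the Firre vector. No proteasome gene passed in either direction in edgeR or in DESeq2. An unadjusted edgeR p under 0.05 was found for 7 of the 35, and for 1330 of all 15633 genes tested. Over all genes tested 0.0576% were called, 0.00640% higher and 0.0512% lower in the negative control. The median log2 difference of the negative control from the blank control was -0.06, with extremes of -0.18 and 0.15. The sign was negative for 29 of the 35 genes, and for 8064 of all 15633 genes tested. Groups did not overlap for 9 proteasome genes, all lower in the negative control, against 13.1% of all genes in either direction, 6.21% higher and 6.87% lower. Psma4 had a log2 difference of -0.16 (95% interval -0.27 to -0.05, adjusted p = 0.345) and Psmc4 one of -0.16 (-0.28 to -0.05, adjusted p = 0.388). The 6 genes that were higher than the negative control and did not pass against the blank control had log2 differences between the negative and the blank control of -0.16 for Psma4, -0.13 for Psmb1, -0.13 for Psmd12, -0.08 for Psmb3, -0.07 for Psmc1 and -0.06 for Psma1, none of which passed.

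Genes that act with the proteasome were described by lists, chosen with earlier results of these data known. Of the 5 activators and inhibitors of the 20S core, 4 (80.0%) were higher in the Firre group than in the negative control and none lower in edgeR. Of all genes 56.0% were called in either direction, 27.5% higher and 28.4% lower. The median log2 difference of the 5 was 0.48. Psme1 and Psme2, which form the interferon-inducible PA28 cap, were both higher, Psme1 by 1.09 ± 0.06 on the log2 scale (adjusted p = 6.82e-15) and Psme2 with an adjusted p of 1.03e-13, and Psme4, the PA200 cap, was higher by 0.48 ± 0.05 (adjusted p = 1.36e-08). Psme1 averaged 132 ± 10.1 CPM in the Firre group, 62.2 ± 1.47 CPM for the negative control and 66.8 ± 6.36 CPM for the blank control (SD, n = 3 each). Psme2 averaged 50.7 ± 2.39 CPM in the Firre group, 25.3 ± 0.672 CPM for the negative control and 24.9 ± 0.677 CPM for the blank control. Of 7 assembly factors 3 were higher and none lower (median 0.26), so 42.9% were called, against 56.0% of all genes in either direction. All of these calls were higher, where 27.5% of all genes were called higher and 28.4% lower. Ecpas, a scaffold that binds the 26S particle, was higher by 0.32 ± 0.05, and Psmg1 and Psmg2, which together guide the alpha ring, by 0.37 ± 0.10 and 0.27 ± 0.08. An eighth listed factor, Paaf1, had no match by symbol.

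Of 12 ubiquitin receptors, deubiquitinases and other partners of the 26S particle, 4 were higher and 2 lower (median 0.06), so 6 of 12 were called, a share below the 56.0% of all genes. By direction 33.3% were higher and 16.7% lower, against 27.5% and 28.4% of all genes. The shuttle factor Ubqln4 was higher by log2 0.38 ± 0.06 (edgeR adjusted p = 1.47e-06), while Ubqln2, another shuttle factor, was lower, at -0.35 ± 0.06 (adjusted p = 2.19e-05). Of 8 genes listed for transcriptional control by NRF1, among them its relative Nfe2l2 (NRF2), 4 were higher and 1 lower (median 0.08), and the 62.5% called was likewise near the 56.0% of all genes. Nfe2l1, which encodes NRF1, averaged 585 ± 3.78 CPM in the Firre group, 459 ± 1.49 CPM for the negative control and 449 ± 9.87 CPM for the blank control (SD, n = 3 each). Its log2 difference was 0.35 ± 0.04 from the negative control (adjusted p = 2.50e-08) and 0.38 from the blank control (adjusted p = 4.05e-09). Ngly1, which removes sugar chains so that NRF1 becomes active, was higher by 0.27 ± 0.08 than in the negative control (adjusted p = 0.00733), a call that did not hold without negative control replicate 2 (0.21, adjusted p = 0.0567). Sel1l, a part of the machinery that exports proteins from the endoplasmic reticulum, was lower, at -0.17 ± 0.05 (adjusted p = 0.00380).

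The ubiquitin-activating enzymes Uba6 and Uba1 did not pass against the negative control, at log2 0.15 (edgeR adjusted p = 0.0602) and 0.09 (adjusted p = 0.0789). All 6 muscle ubiquitin ligases were higher (100%, against 27.5% of all genes called higher), with a median of 0.83. Their list was chosen with earlier results of these data known, so the share describes these 6 genes and is not a test. Trim54 had a log2 difference of 1.38 ± 0.07 (adjusted p = 1.98e-15), Fbxo40 1.13 ± 0.06 (adjusted p = 1.43e-16) and Fbxo32, also known as atrogin-1, 0.94 ± 0.06 (adjusted p = 1.24e-14). Fbxo32 averaged 165 ± 4.34 CPM in the Firre group, 86.1 ± 2.69 CPM for the negative control and 77.9 ± 7.42 CPM for the blank control (SD, n = 3 each). The cardiomyocyte markers given above were higher in the same libraries, and their part in the levels of these ligases was not tested.

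Promoter windows of RefSeq, 250 bases before to 50 after the start, were found for 29 of the 36 proteasome genes, 31 windows in all. The ETS letters GGAAGT were in 17 of the 31 (54.8%), against 27.0% of the 14132 windows of genes tested and 23.8% of all 32851 windows. The GC box was in 22 (71.0%, against 59.3% and 35.3%), the CCAAT box in 12 (38.7%, against 37.3% and 37.4%) and the interferon-stimulated letters in 5 (16.1%, against 7.24% and 8.56%). The antioxidant response core was in 5 windows (16.1%, against 14.1% and 12.4%). These were the windows of Psmb5, Psmb6, Psmc6 and Psmd12, which were higher in the Firre group than in the negative control, and of Psmd9, which was lower. Of all proteasome genes tested 42.9% were called higher. The windows of Psmc5, Psmc2 and Psma6, which were also higher, do not hold the core. A link between the letters and the calls was not tested. A match is a description of letters, not of binding.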

How the data were processed

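The authors deposited raw, unnormalized counts for each Ensembl gene. Per the labels' protocols, TRIzol RNA was depleted of ribosomal RNA, and strand-marking libraries gave paired reads of 150 bases, although the molecule is labelled as polyA RNA. Reads passed through Trimmomatic, STAR and featureCounts on mm10 per the submitters' processing notes, with no versions given, while the unassigned lines closing the table are written as HTSeq writes them, so the counter is not settled. Those lines (16.3% to 17.4% of counts) were left out of library sizes and tests.

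Symbols came from GENCODE M21 (55227 identifiers matched). One edgeR 4.0.16 fit in R 4.3.3 held all 9 libraries (6 residual degrees of freedom), with TMM, filterByExpr (minimum count 10, total 15), a robust quasi-likelihood F test and a threshold of 0.05 on Benjamini-Hochberg adjusted p. Each standard error is the size of the log2 fold change divided by the root of F, and intervals are 95%. Near-identical copies (at least 97% over 150 bases) were found with blastn 2.17.0. The scripts were tested on simulated counts. The members, gene lists and markers were chosen with earlier results of these data known. All members are named, with the value in every library for the catalytic subunits, Psmd14 and up to 6 of the largest changes past the threshold per direction, and from each other list the 3 genes with the smallest p, of which some are not reported here; library values of Psmb3, Psmb4, Psma4, Psmd12 and Psma8 were added after their values were seen.

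Titles number biological replicates without naming animals or cultures, so p-values reflect only how far these libraries differ, and that spread may be technical. The chi-square per degree of freedom between replicates was 3.41 to 7.99, above sampling noise, so each library counts once. The labels name no batch; one that followed the groups cannot be told apart from them. Alternatives were other scalings, no filter, DESeq2 1.42.0, 2-group fits, a replicate block, each library left out, and pseudogene counts added or ratios taken over another length, the last pair chosen after seeing the data.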

Additional observations from a re-analysis of the deposited data

How the results depend on the processing

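Each gene's log2 fold change was recomputed under 17 alternatives. Of 1173 such values for 69 comparisons of named genes, 1102 kept their direction and their side of the threshold, 42 no longer passed, 10 newly passed and 19 changed sign, none of these from a gene that had passed. The 15 proteasome genes higher than in the negative control were 11 with library totals alone, which lost Psma1, Psma4, Psmb3 and Psmc1, and 13 to 16 when 1 library was left out; 11 genes were called under every alternative. The 3 lower genes were 2 in DESeq2 and 1 to 3 with 1 library left out, and Psmd8 was called in all. Against the blank control, 9 higher genes were 7 to 12 and 3 lower genes 2 to 3 with 1 library left out. Library totals alone moved the median of all genes by -0.05 and turned the sign of genes that had not passed, Psma2 (-0.04), Psma3 (-0.01), Psma7 (-0.003), Psmb4 (-0.04), Psmd6 (-0.05), Psmd11 (-0.03), Psmd13 (-0.04) and Psmd14 (-0.02). Leaving out 1 library turned the sign of 5 genes that had not passed, whose values then ran over -0.33 to 0.14 for Psma8, -0.01 to 0.06 for Psmb4, -0.04 to 0.06 for Psmd6, -0.02 to 0.04 for Psmd13 and -0.01 to 0.09 for Psmd14; the cause was not tested. Same-numbered libraries did not deviate together (correlations of -0.04 to 0.03), so no pairing by number was seen. With 3 libraries per group this check cannot exclude that same-numbered libraries were prepared together, and the labels do not say. With the number as a replicate block, the counts were 15 higher and 3 lower against the negative control and 8 higher and 2 lower against the blank control, without Psmd4 and Psmd3. Values below about 1 CPM, as for Psma8 and for Psmb9 in the negative control, are limited by depth.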
